A study of Mus musculus with 42 samples.

Results

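The macrophage markers described here are 8 genes, Cd68, Csf1r, Mrc1, Cd163, Itgax, Itgam, Trem2 and Gpnmb. They were found by their gene name among the non-control probes of a whole mouse genome array and are 8 of 27597 named genes, measured by 14 of 41174 probes. Their levels were followed in liver, skeletal muscle (quadriceps) and visceral fat of female C57BL/6 mice that were wild-type (Wt) or carried 1 disrupted allele of the kinase Akt1 (Akt1+/-) in the germline, and so in every tissue. The mice were sampled at 8 weeks and at 35 weeks by the labels, where the study's methods give a somewhat later age. There were 14 arrays for each of the 3 tissues. A group was 1 genotype at 1 age and held 3 arrays at 8 weeks or 4 at 35 weeks. The mice received no treatment that the labels name. Each array is numbered as a replicate, but nothing ties the arrays of the different tissues to the same mouse, and p values measure the spread between these samples.

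Macrophages are the resident phagocytes of every tissue. They descend from embryonic progenitors or from blood monocytes, depend on signals through the CSF1 receptor for survival, and take the character of the organ in which they live. They are found as Kupffer cells in the sinusoids of the liver, as a sparse population between the fibres of muscle, and as the main immune cell of adipose tissue, where their number is known to follow the fat load. The transcription factor PU.1 drives the myeloid programme by binding purine-rich sites in the promoters and enhancers of many of their genes. Several of the 8 genes are not restricted to macrophages, since neutrophils carry Itgam, dendritic cells carry Itgax, sinusoidal endothelium carries Mrc1 and melanocytes and osteoclasts carry Gpnmb. In pieces of whole tissue, fewer cells of a type and less RNA per cell cannot be told apart.

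Values are log2 signals relative to the 75th percentile of their own array, called levels below, and differences between groups are differences of log2 levels. Over the 42 arrays the 75th percentile ranged from 274 to 795 intensity units, 56.5 to 68.6% of the probes were well above background and no member probe was saturated. Of the 8 genes, 5 had several probes, and the brightest that passed the filter on dim signals stood for the gene. Akt1 itself was lower in the Akt1+/- group in each tissue at each age, by 0.48 to 0.72 on the log2 scale with no overlap of the groups on its brighter probe. Alb, Acta1 and Adipoq, the hepatocyte, myofibre and adipocyte genes, were highest in the tissue of the label, while Adipoq was also present on the muscle arrays and Acta1 on the fat arrays. In muscle, Akt1+/- replicate 3 at 8 weeks had an Alb level of 5.18, where no other muscle array exceeded 1.76. At 35 weeks each genotype of a tissue lay on a slide of its own, where the effects of the slide and of genotype cannot be told apart. Age cannot be told apart from the day of scanning.

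The promoters of 7 of the 8 genes were taken from the RefSeq table of the mouse assembly GRCm38.p6, as the 250 bases before the start of each gene. They were searched on both strands for the 6-letter core GAGGAA that PU.1 sites carry. On the opposite strand this core reads TTCCTC. It stood in 4 of the 7, those of Cd68, Mrc1, Itgam and Trem2, against 23.3% of 32851 promoters in the table, and was not found in these windows of Cd163, Itgax and Gpnmb. Trem2 and Cd163 are shown because the genotype results turn on them, and Itgam because it holds the core on both strands. Capitals mark the core, and each sequence reads 5′ to 3′ on the plus strand. The windows lie at chr17:48346151-48346400 for Trem2, chr7:128062390-128062639 for Itgam and chr6:124304401-124304650 for Cd163.
Trem2: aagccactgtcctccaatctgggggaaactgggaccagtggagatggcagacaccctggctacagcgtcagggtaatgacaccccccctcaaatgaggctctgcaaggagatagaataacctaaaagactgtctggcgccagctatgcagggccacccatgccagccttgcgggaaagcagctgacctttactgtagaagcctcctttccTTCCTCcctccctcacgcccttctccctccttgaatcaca
Itgam: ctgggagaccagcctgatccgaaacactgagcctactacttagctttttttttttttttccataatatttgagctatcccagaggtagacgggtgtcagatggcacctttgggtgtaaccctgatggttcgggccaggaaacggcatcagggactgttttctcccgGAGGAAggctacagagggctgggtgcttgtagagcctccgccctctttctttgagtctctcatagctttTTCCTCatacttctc
Cd163: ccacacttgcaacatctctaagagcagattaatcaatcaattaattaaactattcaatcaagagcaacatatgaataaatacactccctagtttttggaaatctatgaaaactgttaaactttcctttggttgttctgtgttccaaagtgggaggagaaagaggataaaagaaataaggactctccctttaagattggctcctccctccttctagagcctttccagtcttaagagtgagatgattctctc
The Trem2 core lay on the opposite strand 40 bases before the start, and the Itgam cores began 84 bases before the start on the same strand and 15 bases before it on the opposite strand. A match describes the letters only, and binding was not measured.

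All 8 genes had their highest mean level in visceral fat, and 6 of them were called higher in liver than in muscle. Trem2, a lipid-sensing receptor of phagocytes, was 16.8-fold higher in fat than in liver and 45.4-fold higher than in muscle, and Gpnmb, a transmembrane glycoprotein of lipid-laden macrophages, was near background in liver and plain in fat and muscle. In limma over all 42 arrays, with a call at an adjusted p below 0.05 and a log2 difference above 1, 6 of the 8 members were called higher in fat than in liver, where 44.2% of 19905 genes were called and 23.7% were called higher. All 8 were called higher in fat than in muscle, against 48.2% called and 26.7% called higher among all genes. Between liver and muscle 7 were called, 6 of them higher in liver, against 48.8% called and 23.7% called higher. Gpnmb was too dim for the filter in liver and entered this fit only through fat and muscle. Its calls against liver were thus set by the filter and do not count beside these shares. The median difference of the members was 1.98 for fat against liver, 3.12 for fat against muscle and 1.68 for liver against muscle, where the medians of all genes were -0.04, -0.01 and -0.06. Normexp background correction with quantile normalization took Itgax (0.67) and Itgam (0.77) between fat and liver, Itgam (0.78) and Gpnmb (0.81) between fat and muscle, and Itgax (0.82) and Trem2 (0.88) between liver and muscle below a difference of 1, all in the same direction. It took Csf1r between fat and liver above 1 (1.12). The mean over the probes of a gene ended the calls of Itgax between fat and liver (0.27) and of Trem2 between liver and muscle (0.99), and scaling to the array median that of Gpnmb between fat and muscle (0.98).

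Csf1r, the receptor for the growth factors CSF1 and IL-34, had a mean level of 3.27 ± 0.25 in fat, 2.59 ± 0.40 in liver and 0.19 ± 0.40 in muscle (SD, n = 14 arrays each). Its lowest, median and highest levels were 2.79, 3.25 and 3.69 in fat, 1.65, 2.57 and 3.22 in liver and -0.41, 0.15 and 0.80 in muscle. Fat and liver overlapped, and their difference of 0.72 (SE 0.12, adjusted p = 1.02e-06) was below the size asked of a call. Muscle lay below every liver and fat array, at a difference of 2.36 (SE 0.12, adjusted p = 2.48e-19) from liver.

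Among the scavenger and lectin receptors, Cd68, the lysosomal macrosialin, had lowest, median and highest levels of 1.57, 2.21 and 2.70 in fat, -0.44, 0.21 and 0.53 in liver and -2.70, -1.84 and -0.73 in muscle. No array of a tissue reached the range of the next. The difference was 2.09 (SE 0.12, adjusted p = 3.74e-17) for fat against liver and 1.93 (SE 0.12, adjusted p = 2.77e-16) for liver against muscle. Mrc1, the mannose receptor, lay at 1.55, 1.83 and 2.40 in fat, 1.10, 1.48 and 1.64 in liver and -1.86, -1.30 and -0.16 in muscle. Its fat and liver ranges met, with a difference of 0.47 (SE 0.08, adjusted p = 1.53e-06) that stayed under the size asked of a call, and both stood apart from muscle. Cd163, the haemoglobin-haptoglobin receptor of resident macrophages, lay at 3.36, 3.87 and 4.48 in fat, 1.18, 2.28 and 2.57 in liver and -0.25, 0.69 and 1.35 in muscle. The fat arrays were all above the liver arrays, by 1.86 (SE 0.10, adjusted p = 2.36e-18), while liver and muscle overlapped and differed by 1.29 (SE 0.10, adjusted p = 3.92e-14).

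The integrin chains were read close to background in part of the arrays. Itgax, the CD11c chain, had lowest, median and highest levels of -2.36, -1.21 and -0.14 in fat, -3.42, -2.55 and -1.67 in liver and -5.25, -4.47 and -3.16 in muscle. There 1 array (Wt, 35 weeks, replicate 4) was left out because its spot was marked as an outlier, and 10 of the other 13 were well above background. Fat and liver overlapped and differed by 1.21 (SE 0.19, adjusted p = 8.44e-07), and liver and muscle overlapped at their ends and differed by 2.03 (SE 0.20, adjusted p = 2.37e-11). These values rest on the brighter of 2 probes. With probes that had an outlier spot left out altogether, an alternative chosen after seeing the data, the dimmer probe stands for Itgax. Fat against liver then becomes -0.66, adjusted p = 0.00487, and fat against muscle -0.66, adjusted p = 0.00493, while liver against muscle is no longer called (adjusted p = 0.989). The dimmer probe was well above background on 2 of the 14 fat arrays. It passed the filter only through groups of 35 weeks in liver and muscle, and in no group of fat. Its direction between fat and these tissues was thus set by the filter and gives no order of the tissues. Itgam, the CD11b chain, lay at -3.36, -2.54 and -2.07 in fat, and was well above background on all 14 fat arrays but on 9 of 14 liver and 4 of 14 muscle arrays. Its fat arrays all lay above the muscle arrays and 13 of the 14 liver arrays, and the fitted difference was 2.67 (SE 0.24, adjusted p = 2.3e-12) from liver and 2.92 (SE 0.24, adjusted p = 2.34e-13) from muscle. These sizes rest partly on liver and muscle signals that were not well above background, and liver and muscle differed by 0.24 (SE 0.24, adjusted p = 0.335).

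Trem2 had lowest, median and highest levels of 1.09, 2.93 and 4.49 in fat, -2.47, -1.31 and -0.34 in liver and -3.38, -2.82 and -2.01 in muscle. No fat array came near either other tissue, with a difference of 4.07 (SE 0.17, adjusted p = 3.44e-21) from liver, and liver and muscle overlapped at a difference of 1.43 (SE 0.17, adjusted p = 2.38e-09). Gpnmb reversed the order of liver and muscle, with levels of -1.56, -0.26 and 0.54 in fat, -2.25, -1.27 and -0.85 in muscle and -7.66, -5.46 and -4.44 in liver. Only 4 of the 14 liver arrays were well above background for it, and a second Gpnmb probe was at background in all tissues. Fat and muscle overlapped for Gpnmb, at a difference of 1.15 (SE 0.22, adjusted p = 1.4e-05), and the difference of liver minus muscle was -4.17 (SE 0.22, adjusted p = 1.89e-18).

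**Figure D1:**
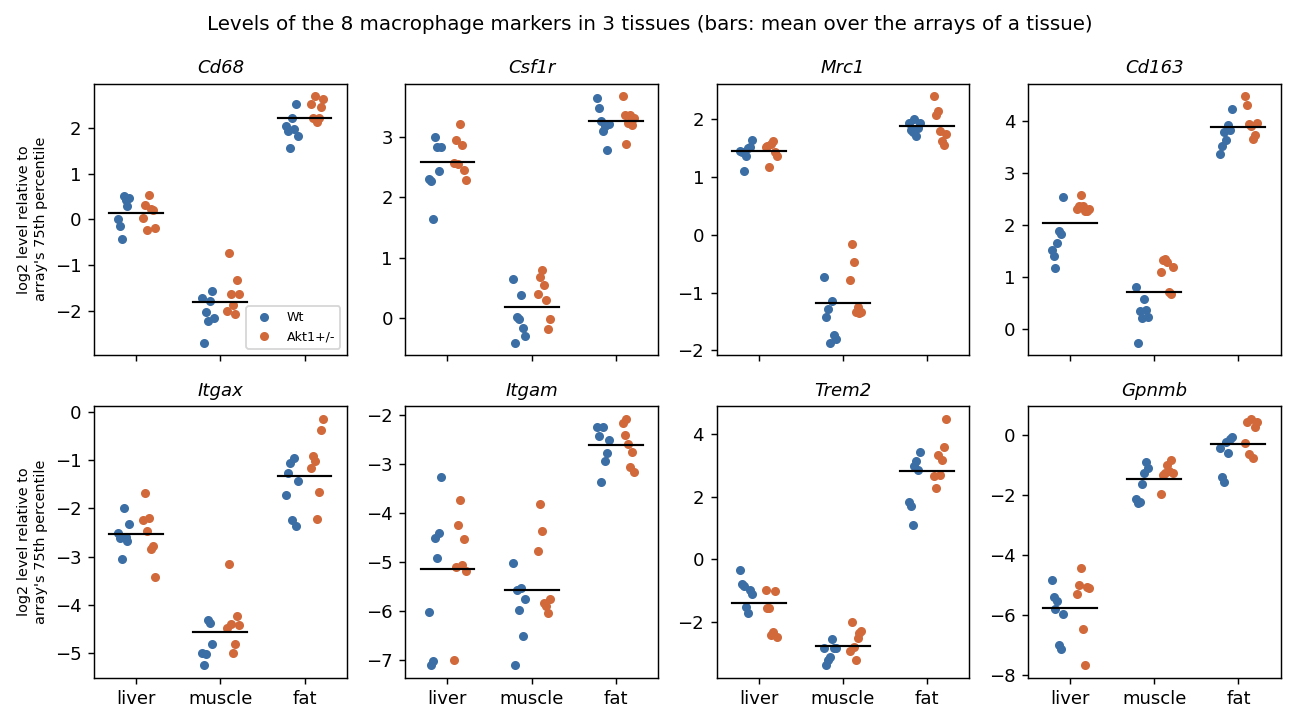
Each of the 8 panels plots 1 gene, with the tissue on the horizontal axis and the level (log2 signal relative to the array's 75th percentile) on the vertical axis. Points are arrays, blue for Wt and orange for Akt1+/-, and black bars are means. Fat has the highest mean in every panel, and the liver arrays of Gpnmb lie between -7.66 and -4.44, below all other Gpnmb arrays.

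A wider list of 26 general macrophage genes was compared in the same way. Of all genes 23.7% were called higher in fat than in liver, 26.7% in fat than in muscle and 23.7% in liver than in muscle. Those called in either direction were 44.2%, 48.2% and 48.8%. In fat against muscle 26 of 26 were called higher, among them Mpeg1, the pore-forming perforin-2, at 3.72 (SE 0.08, adjusted p = 4.3e-30), and C1qb, a complement chain made by macrophages, at 3.51 (SE 0.09, adjusted p = 4.71e-27). In fat against liver 10 of 26 were called higher and 0 lower, and in liver against muscle 22 higher and 0 lower. Of 16 genes of resident macrophages and Kupffer cells, 5 were called higher and 7 lower in fat than in liver, where the 5 lie not far from the share of all genes. Clec4f, the Kupffer cell lectin, differed by -12.15 (SE 0.30, adjusted p = 5.56e-28) and F13a1, a coagulation factor of adipose macrophages, by 9.89 (SE 0.18, adjusted p = 8.35e-32). Of 22 lipid-associated macrophage genes, 9 were called higher and 8 lower in fat than in liver, and 16 higher and 1 lower in fat than in muscle.

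In liver the genotype difference was carried by Cd163, which was 1.61-fold higher in Akt1+/- mice over both ages and 2.05-fold higher at 8 weeks. Trem2 ran the other way, with lower means in Akt1+/- livers at both ages, without passing the test. The other members tested in liver, Cd68, Csf1r, Mrc1, Itgax and Itgam, did not pass, and Gpnmb was too dim to be tested. With limma, 1 of 7 members was called for genotype over both ages, against 6.26% of 17571 genes, 1 at 8 weeks, against 2.16%, and 0 at 35 weeks, against 3.56% (1 member at an unadjusted p below 0.05, and 0 by the methods' two-way test). The median difference of the 7 was 0.09 over both ages, 0.60 at 8 weeks and -0.23 at 35 weeks, and of all genes 0.02, -0.01 and 0.02.

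At 8 weeks the liver levels of Cd163 were 1.52, 1.42 and 1.18 in the Wt arrays and 2.30, 2.36 and 2.57 in the Akt1+/- arrays. Every Akt1+/- liver lay above every Wt liver, and the difference was 1.04 (SE 0.19, adjusted p = 0.0232). At 35 weeks the Wt livers were at 1.65, 1.89, 1.83 and 2.53 and the Akt1+/- livers at 2.38, 2.27, 2.28 and 2.31. The last Wt liver exceeded all Akt1+/- livers there, so that the groups overlapped, and the difference was 0.33 (SE 0.16, adjusted p = 0.316). Over both ages it was 0.69 (SE 0.12, adjusted p = 0.0148), and the call held with each of the 14 arrays left out in turn and under all 11 other settings run. Among these, the authors' log2 values and the mean of a gene's probes leave the values of Cd163, which has a single probe, unchanged.

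The 8-week call of Cd163 was less secure. It was lost without Wt replicate 2 (adjusted p = 0.0774), Wt replicate 3 (adjusted p = 0.0807) or Akt1+/- replicate 3 (adjusted p = 0.0704). It was also lost with no filter on dim probes (adjusted p = 0.0526) and with the replicate number as a block (adjusted p = 0.0561), while the difference remained between 0.94 and 1.11. The difference at 35 weeks became 0.52, adjusted p = 0.0358, without Wt replicate 4. No slide held livers of both genotypes, but all 3 Wt and 2 of the Akt1+/- livers of 8 weeks were scanned on the same day, and within that day the Cd163 difference was 1.06.

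Trem2 levels in liver at 8 weeks were -0.34, -0.77 and -0.86 in Wt and -0.96, -1.56 and -1.55 in Akt1+/- mice. All 3 Akt1+/- livers were below all Wt livers, with a difference of -0.70 (SE 0.35, adjusted p = 0.278). At 35 weeks the Wt livers were at -1.52, -1.71, -0.98 and -1.10 and the Akt1+/- livers at -2.41, -2.31, -1.0 and -2.47. Of the Akt1+/- livers, 3 were below every Wt liver and replicate 3 lay within the Wt range, with a difference of -0.72 (SE 0.30, adjusted p = 0.242). The difference over both ages was -0.71 (SE 0.23, adjusted p = 0.0814), and -0.61 (SE 0.18, adjusted p over probes = 0.0765) on the other Trem2 probe. It passed the test with the replicate number as a block (adjusted p = 0.044), with scaling to the array median (-0.84, adjusted p = 0.0303), in 1 fit over all 42 arrays (adjusted p = 0.0487). It also passed without Akt1+/- replicate 3 of 35 weeks (-0.89, adjusted p = 0.0188). Without that array the difference at 35 weeks also passed (-1.07, adjusted p = 0.0227).

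Among the other members, Csf1r was at 2.32, 2.28 and 1.65 in Wt and 2.57, 2.96 and 2.56 in Akt1+/- livers of 8 weeks, and Itgax at -2.52, -2.62 and -3.05 and -2.25, -1.67 and -2.47. For both genes all Akt1+/- livers were above all Wt livers, but neither difference passed the test, at 0.62 (SE 0.25, adjusted p = 0.186) for Csf1r and 0.60 (SE 0.29, adjusted p = 0.269) for Itgax. The groups thus did not overlap, with Akt1+/- higher, for 3 of 7 members (Cd163, Csf1r and Itgax), against 11.1% of all genes, and with Akt1+/- lower for Trem2, against 14.1%. At 35 weeks 0 of 7 members stood apart with Akt1+/- higher, against 9.12%. Cd68 and Mrc1 had 8-week differences of 0.23 (95% interval -0.17 to 0.63) and 0.08 (95% interval -0.21 to 0.37). Itgam was not well above background on any Wt liver of 8 weeks, and its difference of 1.27 (95% interval -0.11 to 2.65, adjusted p = 0.278) has the widest interval of the 7.

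In visceral fat at 8 weeks, 7 of the 8 members had higher means in Akt1+/- mice, all but Csf1r, and Cd68, Mrc1, Cd163 and Trem2 were higher on every Akt1+/- array than on any Wt array. Trem2 had the largest difference, 2.31-fold. None of these differences passed the adjusted test, and at 35 weeks all 8 members overlapped between the genotypes. With limma, 0 of 8 members were called for genotype in fat, over both ages (4 at an unadjusted p below 0.05), at 8 weeks (5) or at 35 weeks (0), and 0 by the methods' two-way test. Of 18375 genes, 0.827% were called over both ages, 1.84% at 8 weeks and 1.72% at 35 weeks. Members whose groups did not overlap, with Akt1+/- higher, were 4 of 8 at 8 weeks, against 13% of all genes, and 0 of 8 at 35 weeks, against 3.9%. The median difference of the members was 0.55 at 8 weeks and 0.22 at 35 weeks, with -0.02 and 0.00 for all genes.

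Trem2 in fat was at 1.84, 1.69 and 1.09 on the Wt and 2.67, 2.28 and 3.32 on the Akt1+/- arrays of 8 weeks. The groups were apart, with a difference of 1.21 (SE 0.39, adjusted p = 0.099) and of 1.16 (SE 0.38, adjusted p over probes = 0.103) on the other probe. The first passed in 1 fit over all 42 arrays (adjusted p = 0.0351). At 35 weeks Wt fat was at 2.99, 3.13, 2.87 and 3.43 and Akt1+/- fat at 2.71, 3.18, 3.59 and 4.49. The Akt1+/- arrays there spanned the Wt range and held both the lowest and the highest value, with a difference of 0.39 (SE 0.34, adjusted p = 0.734). Cd163 was at 3.36, 3.51 and 3.78 in Wt and 4.48, 4.30 and 3.94 in Akt1+/- fat of 8 weeks, a difference of 0.69 (SE 0.17, adjusted p = 0.0592). Again no Wt array reached the Akt1+/- range, and the difference passed the test without Wt replicate 3 (0.80, adjusted p = 0.0344), with normexp background correction and quantile normalization (adjusted p = 0.0361) and when slides entered as a random block (adjusted p = 0.0487).

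Cd68 was at 2.04, 1.92 and 1.57 in Wt and 2.53, 2.21 and 2.70 in Akt1+/- fat of 8 weeks, and Mrc1 at 1.93, 1.81 and 1.78 and 2.40, 2.06 and 2.14. Both genes separated the genotypes on these arrays, by 0.64 (SE 0.20, adjusted p = 0.0965) for Cd68 and 0.36 (SE 0.12, adjusted p = 0.0976) for Mrc1. Gpnmb was at -0.43, -1.39 and -1.56 in Wt and -0.28, 0.42 and -0.64 in Akt1+/- fat. Its groups overlapped, since Wt replicate 1 lay above Akt1+/- replicate 3, and the difference was 0.97 (SE 0.38, adjusted p = 0.154). The integrins and the CSF1 receptor overlapped too, with differences of 0.32 (95% interval -0.78 to 1.42, adjusted p = 0.727) for Itgax, 0.47 (95% interval -0.12 to 1.06, adjusted p = 0.301) for Itgam and -0.16 (95% interval -0.56 to 0.25, adjusted p = 0.635) for Csf1r.

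Slide 10 held all 3 Akt1+/- and 1 Wt fat array of 8 weeks, and the other Wt arrays were on another slide and scanned on another day. Within slide 10 the Akt1+/- mean exceeded the Wt array by 1.66 for Trem2, 1.40 for Gpnmb, 1.15 for Itgam and 0.91 for Cd68, all larger than the differences over both slides. That Wt array was the lowest Wt fat array of 8 weeks for each of these genes, so that its difference had to be the larger. The within-slide values were 0.46 for Cd163, 0.42 for Mrc1, 0.05 for Csf1r and 0.02 for Itgax.

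In skeletal muscle the 7 members other than Itgam had higher means in Akt1+/- mice at 8 weeks. Cd163 had them at both ages with no overlap of the groups. No member passed the adjusted test. With limma, 0 of 8 members were called for genotype over both ages (5 at an unadjusted p below 0.05), at 8 weeks (5) or at 35 weeks (1), and 0 by the methods' two-way test. Among all 17156 genes the share was 0% over both ages, 0% at 8 weeks and 0.0991% at 35 weeks, so that the tissue as a whole gave almost no calls. Itgam entered this fit only through the Akt1+/- group of 8 weeks, the 1 group with it well above background on 3 arrays, so that its direction there was set by the filter. It is among the 5 at an unadjusted p below 0.05 at 8 weeks and does not count there. The median of the 7 other members was 0.69 at 8 weeks and 0.21 at 35 weeks, with -0.02 and 0.01 for all genes. Members whose groups did not overlap, with Akt1+/- higher, were Cd163, Itgax and Gpnmb at 8 weeks, 3 of these 7, against 9.61% of all genes, and Cd163 at 35 weeks, 1 of 7, against 3.43%.

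Cd163 in muscle was at 0.82, -0.25 and 0.35 in Wt and 1.10, 1.33 and 1.35 in Akt1+/- mice of 8 weeks, and at 0.21, 0.58, 0.38 and 0.24 and 1.29, 0.71, 0.68 and 1.19 at 35 weeks. At each age the lowest Akt1+/- array was above the highest Wt array, by a narrow margin at 35 weeks. The difference was 0.96 (SE 0.24, adjusted p = 0.138) at 8 weeks, 0.61 (SE 0.21, adjusted p = 0.38) at 35 weeks and 0.78 (SE 0.16, adjusted p = 0.0917) over both. The last passed the test with the slide as a random block (adjusted p = 0.0452), without Wt replicate 1 of 8 weeks (0.91, adjusted p = 0.0452) and in 1 fit over all 42 arrays (adjusted p = 0.00245). Within slide 6, which held all 3 Wt and 1 Akt1+/- muscle of 8 weeks, the Cd163 difference was 0.80. Without Akt1+/- replicate 3, the array with the high Alb level, it was 0.91, adjusted p = 0.445 at 8 weeks.

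Gpnmb in muscle was at -2.14, -2.25 and -2.25 in Wt and -1.95, -1.35 and -1.27 in Akt1+/- mice of 8 weeks. The groups were apart, with a difference of 0.69 (SE 0.20, adjusted p = 0.178) that passed without Akt1+/- replicate 1 (0.91, adjusted p = 0.0463). Itgax was at -5.00, -5.25 and -5.01 and -4.47, -3.16 and -4.39, and Itgam at -5.01, -7.11 and -5.56 and -4.78, -3.82 and -4.37. Itgax was higher on all Akt1+/- arrays, by 1.08 (SE 0.32, adjusted p = 0.184), with 2 of the 3 Wt arrays well above background. Of the Wt arrays 1 of 3 was well above background for Itgam. The remaining differences at 8 weeks were 0.69 (95% interval -0.04 to 1.41, adjusted p = 0.334) for Cd68, 0.54 (95% interval -0.04 to 1.12, adjusted p = 0.34) for Csf1r, 0.67 (95% interval 0.20 to 1.15, adjusted p = 0.2) for Mrc1 and 0.56 (95% interval -0.04 to 1.17, adjusted p = 0.345) for Trem2.

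**Figure D2:**
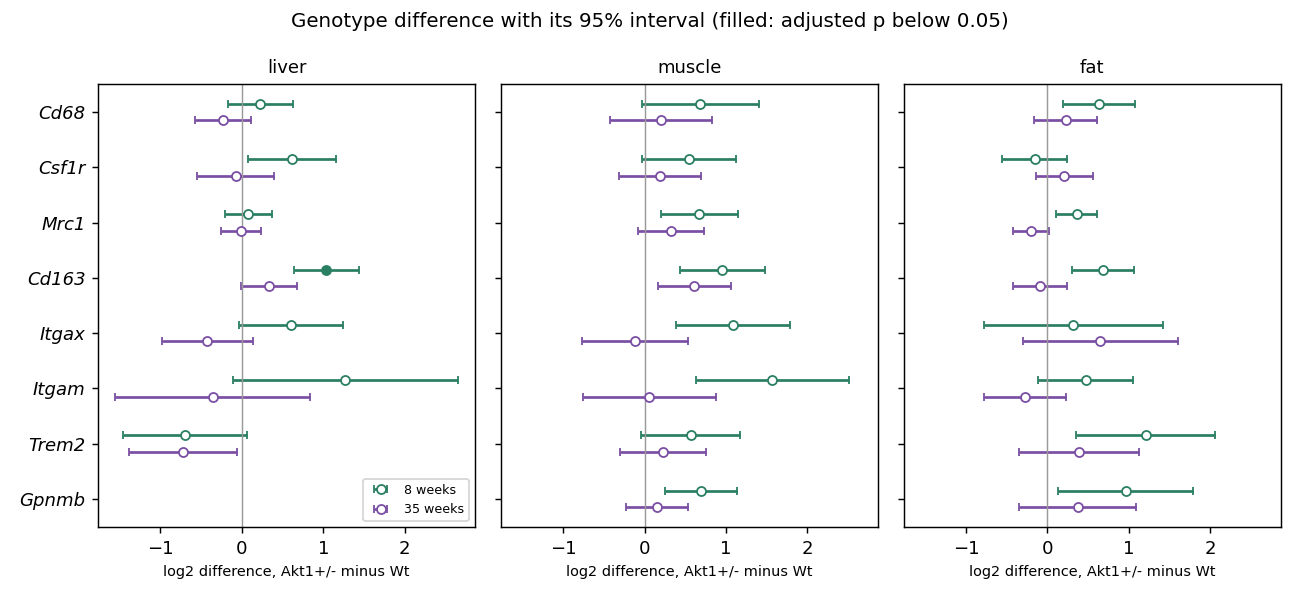
The plot of genotype differences shows, for each tissue, the log2 difference Akt1+/- minus Wt of each member with its 95% interval, green at 8 weeks and purple at 35 weeks, filled where the adjusted p was below 0.05. The filled point is Cd163 in liver at 8 weeks (1.04), all 8-week points of muscle lie to the right of 0, and Trem2 lies to the left of 0 in liver and to the right in muscle and fat. The side of the 8-week Itgam point of muscle was set by the filter.

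The genotype differences of Trem2 in liver and fat were tested against each other in the fit over all 42 arrays. The difference in fat exceeded that in liver by 1.51 on the log2 scale (SE 0.34, 95% interval 0.82 to 2.21, adjusted p = 0.00913), from 0.80 in fat and -0.71 in liver. Under the other settings run it ranged from 1.38 to 1.65 (adjusted p from 0.00429 to 0.0222), and with each of the 42 arrays left out in turn it stayed called (adjusted p from 0.00177 to 0.024). It was the sole member called of 8, against 4.25% of 19905 genes. In this difference the fat arrays of 35 weeks had genotype, slide and day of scanning in common, which cannot be told apart. The other members differed between fat and liver by -0.39 (Cd163) to 0.43 (Cd68), with adjusted p values of 0.272 and above. For fat against muscle 0 of 8 were called with limma (2 at an unadjusted p below 0.05), against 0.713%, and for liver against muscle also 0 (2), against 0.894%. Trem2 there had -1.11 (SE 0.34, adjusted p = 0.0977) and passed without Akt1+/- liver replicate 3 of 35 weeks (-1.28, adjusted p = 0.0401).

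**Figure D3:**
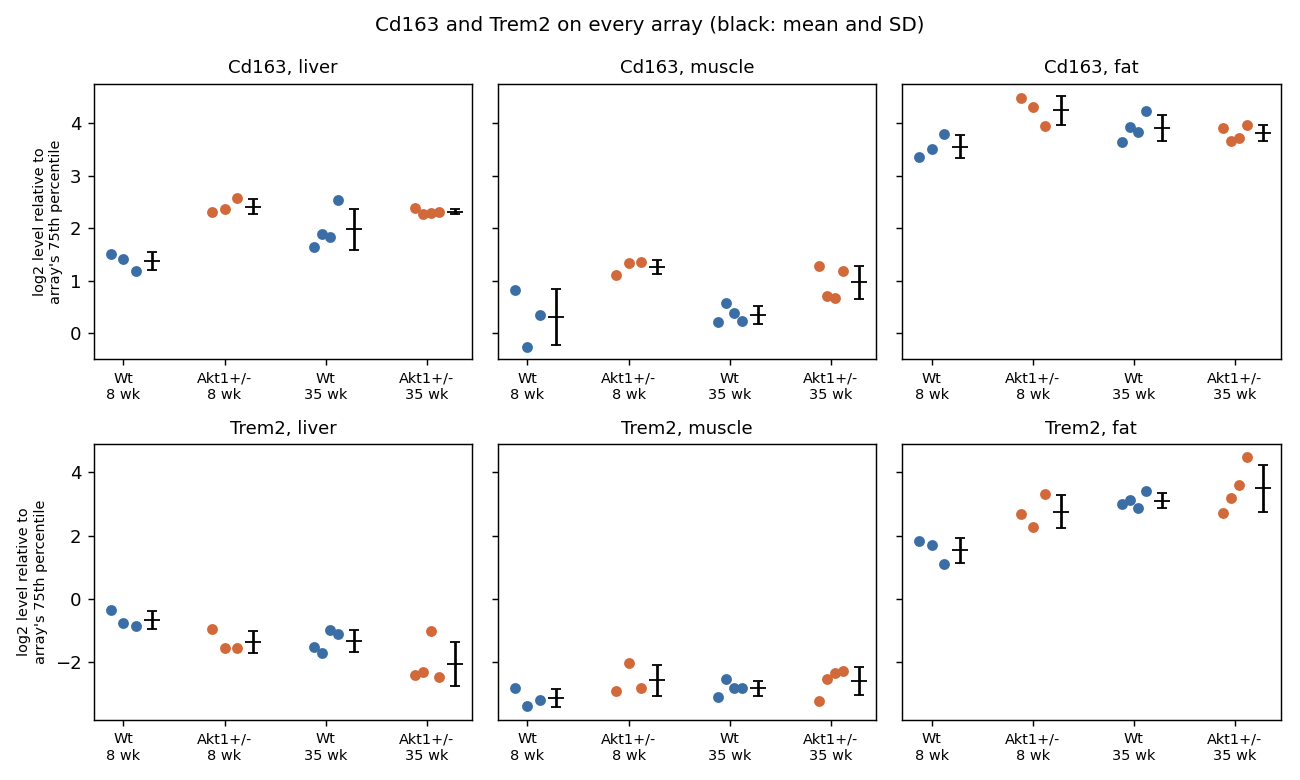
Cd163 (top) and Trem2 (bottom) are plotted on every array, with the 4 groups of each tissue on the horizontal axis and the log2 level relative to the array's 75th percentile on the vertical axis, and with the mean and SD in black. The 3 Akt1+/- livers of 8 weeks lie at 2.30 to 2.57 for Cd163 against at most 1.52 in Wt, and the Trem2 groups move down with genotype in liver and up in fat at 8 weeks.

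The interaction, the signed genotype difference at 35 weeks minus that at 8 weeks, was below 0 for 7 of 7 members in liver, 8 of 8 in muscle and 6 of 8 in fat. Itgam entered the muscle fit only through the Akt1+/- group of 8 weeks, so that its sign there was set by the filter and does not count. A value below 0 does not always mean a smaller difference, as Trem2 in liver was at -0.70 at 8 and -0.72 at 35 weeks. No member passed the test of the interaction. With limma 0 were called in liver (2 at an unadjusted p below 0.05), 0 in muscle (2) and 0 in fat (2), and 0 by the methods' two-way test, against 0.569%, 0% and 1.64% of all genes. Among the larger values were -0.78 (95% interval -1.28 to -0.28, adjusted p = 0.102) for Cd163 and -0.56 (95% interval -0.89 to -0.23, adjusted p = 0.0864) for Mrc1 in fat. In liver they were -0.70 (95% interval -1.23 to -0.17, adjusted p = 0.221) for Cd163 and -1.63 (95% interval -3.46 to 0.20, adjusted p = 0.416) for Itgam. A smaller genotype difference at 35 weeks was therefore not shown for any of the 8 genes.

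In fat the wider macrophage lists held genes that passed the genotype test, led by the general macrophage genes. At 8 weeks 6 of 26 general macrophage genes were higher and 0 lower in Akt1+/- fat, against 0.898% of all genes called higher, with a list median of 0.50. Mpeg1 differed by 1.08 (SE 0.12, adjusted p = 0.00589) and Tyrobp, the adaptor through which TREM2 signals, by 0.60 (SE 0.09, adjusted p = 0.0333). Over both ages 4 of 26 were higher, against 0.229% of all genes. With no filter 7 genes of the whole array were called at 8 weeks, and with the replicate number as a block 1 was called over both ages, so that most of these calls rest on the setting. Of 18 recruitment genes 1 was higher at 8 weeks, the monocyte chemokine Ccl9 (1.13 (SE 0.22, adjusted p = 0.0384)), and of 18 activation genes 1, the pattern receptor Tlr2 (1.10 (SE 0.22, adjusted p = 0.0384)). Of 22 lipid-associated genes 1 was higher, again Tyrobp, and of 15 resident macrophage genes and 12 genes of CSF1R ligands and lineage factors 0 passed in either direction. The interaction in fat passed for Mpeg1 (-0.92 (SE 0.15, adjusted p = 0.0129)), Aif1 (-0.89 (SE 0.18, adjusted p = 0.0313)) and Tlr2 (-1.34 (SE 0.29, adjusted p = 0.0448)), whose genotype differences were smaller at 35 than at 8 weeks. At 35 weeks genotype in fat cannot be told apart from slide and day of scanning.

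In liver, where 6.26% of all genes were called over both ages and 2.16% at 8 weeks, 0 of 26 general macrophage genes passed for genotype over both ages or at 8 weeks (list medians 0.12 and 0.31). Csf2rb, the shared receptor chain for GM-CSF, was higher in Akt1+/- livers by 0.83 (SE 0.15, adjusted p = 0.0159) over both ages and by 1.51 (SE 0.23, adjusted p = 0.0155) at 8 weeks, 1 of 12 genes of its list. Over both ages the lipid-associated list had 2 of 19 genes higher, the tetraspanin Cd9 (0.58 (SE 0.13, adjusted p = 0.0276)) and the lipid droplet coat gene Plin2 (0.57 (SE 0.15, adjusted p = 0.0437)), of which Plin2 is also a gene of hepatocytes. Ccl7, a monocyte chemokine, was 1 of 17 recruitment genes and was higher by 0.45 (SE 0.12, adjusted p = 0.0464), and Slc40a1, the iron exporter ferroportin, 1 of 14 resident and Kupffer genes, was lower by log2 -0.51 (SE 0.12, adjusted p = 0.028). In muscle 0 genes of these 6 lists passed for genotype over both ages or at 8 weeks, and the list medians at 8 weeks ran from 0.14 for CSF1R ligands and lineage factors to 0.80 for recruitment.

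Some markers of neutrophils, which share Itgam with macrophages, moved with genotype in the same arrays. S100a9, a calprotectin chain abundant in neutrophils, was at -0.01, -0.24 and -0.31 in Wt and 1.33, 1.64 and 2.73 in Akt1+/- livers of 8 weeks, a difference of 2.08 (SE 0.45, adjusted p = 0.0372). In fat it was at -1.58, -1.78 and -1.91 and -0.29, 0.41 and 3.02 (2.81 (SE 0.69, adjusted p = 0.0568)), and in muscle at -3.18, -2.55 and -1.21 and 0.03, -0.28 and 2.73 (3.14 (SE 0.99, adjusted p = 0.194)). In all 3 tissues the Akt1+/- arrays were above the Wt arrays. The summed level of the 9 neutrophil genes on the array was taken on the linear scale relative to the 75th percentile. It ranged at 8 weeks from 0.984 to 1.19 in Wt and 2.82 to 7.24 in Akt1+/- livers, from 0.257 to 0.62 and 0.999 to 7.73 in muscle and from 0.508 to 0.661 and 1.15 to 9.23 in fat. Of the tested genes 2 of 5 were called higher in liver, 0 of 3 in muscle and 0 of 4 in fat. Between 2 and 6 of the 9 genes were not well above background on any array of these groups. On the Akt1+/- arrays S100a9 made up most of the sum, which thus largely restates that gene. S100a8 and Mpo also had higher 8-week means in Akt1+/- mice in each tissue. Ngp was well above background on no array of 8 weeks, and Camp on none of liver or fat.

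In fat of 8 weeks the mesothelial markers, the cells that cover visceral fat, summed to 22.7 to 33.2 in Wt and 36 to 52.5 in Akt1+/- arrays, with 1 of 6 genes called higher. Alb was higher in Wt (-3.05 (SE 0.63, adjusted p = 0.0387)). The summed hepatocyte level was 1.95 to 10.1 in Wt and 0.902 to 1.22 in Akt1+/- arrays. The summed levels of other marker lists were also apart between the genotypes at 8 weeks. In fat the endothelial sum was 49.2 to 54.2 in Wt and 56.5 to 84.8 in Akt1+/- arrays, while the pancreas (5.44 to 6.51 and 4.11 to 4.77) and erythroid sums (124 to 262 and 98.4 to 121) were lower in Akt1+/- fat. In muscle the sums of endothelium (25.2 to 29.1 and 32.6 to 43.9), mast cells (1.93 to 3.52 and 3.75 to 4.76), B cells (1.92 to 2.47 and 2.62 to 2.85) and natural killer cells (0.11 to 0.143 and 0.176 to 0.203) were higher in Akt1+/- arrays, and the erythroid sum (48.4 to 69.7 and 34 to 39.2) was lower. In liver those of B cells (1.49 to 2.31 and 2.79 to 4.05), natural killer cells (1.05 to 1.06 and 1.23 to 1.66) and adipocytes (24.6 to 30.2 and 41 to 132) were higher, and that of hepatocytes (2797 to 3052 and 2242 to 2563) was lower. Several sums rest on part of their list. Adipoq was well above background on 0 of 3 livers of each genotype at 8 weeks, with means of -5.62 in Wt and -6.35 in Akt1+/-. For adipocytes in liver and pancreas in fat, 4 of 9 genes in Wt and 5 in Akt1+/- were never well above background. For natural killer cells in muscle it was 6 of 9 in both genotypes. The T cell sums overlapped in all 3 tissues, with 1.78 to 2.21 and 2.02 to 2.35 in fat. The part of these cell types in the differences of the 8 members was not tested.

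With age the members changed in different directions in the 3 tissues. In liver Cd68 rose from 8 to 35 weeks, as did Itgam on signals partly at background, and Trem2 fell, in muscle Gpnmb rose and Mrc1 fell, and in fat Trem2 rose and Mrc1 fell. Over both genotypes limma called 3 of 7 members in liver, against 35.1% of all genes, 2 of 8 in muscle, against 31.3%, and 2 of 8 in fat, against 19.2%, so that the members were called at shares near those of all genes. In liver 2 members rose, against 20%, and 1 fell, against 15%, in muscle 1 rose, against 16.9%, and 1 fell, against 14.4%, and in fat 1 rose, against 9.94%, and 1 fell, against 9.3%. Itgam is among the liver members called and among the 2 that rose. It entered that fit only through the groups of 35 weeks, so that its rise was set by the filter and does not count beside these shares. The medians over members and over all genes were 0.25 and 0.02 in liver. They were -0.08 and 0.01 in muscle, and fat had -0.13 and 0.01. Age could not be told apart from slide or scanning day in any tissue.

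The Trem2 levels of fat given above rose from a highest Wt value of 1.84 at 8 weeks to a lowest of 2.87 at 35 weeks, with no overlap in Wt, while the Akt1+/- arrays of the ages overlapped. The difference over both genotypes was 1.15 (SE 0.26, adjusted p = 0.0102), 2.22-fold, and 1.11 (SE 0.25, adjusted p over probes = 0.0103) on the other probe. In liver the Trem2 difference with age was -0.68 (SE 0.23, adjusted p = 0.0379). That call was lost in 8 of the 14 leave-outs, namely Wt replicates 1 and 2 and Akt1+/- replicate 1 of 8 weeks, and Wt replicates 1 and 2 and Akt1+/- replicates 1, 2 and 4 of 35 weeks (adjusted p from 0.0589 to 0.0952). It was lost as well with no filter (adjusted p = 0.057), the slide as a random block (adjusted p = 0.0691), the methods' two-way test (adjusted p = 0.0638) and the mean of both probes (-0.48, adjusted p = 0.0837). The replicate number as a block, which here joins mice of different ages, also ended it (-0.65, adjusted p = 0.0745). Muscle showed a Trem2 difference of 0.15 (95% interval -0.25 to 0.55, adjusted p = 0.573).

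Gpnmb rose with age in muscle, from -2.14, -2.25 and -2.25 in Wt and -1.95, -1.35 and -1.27 in Akt1+/- mice at 8 weeks to -1.65, -1.27, -0.91 and -1.09 and -0.98, -1.20, -0.85 and -1.27 at 35 weeks. Each Wt muscle of 35 weeks was above each Wt muscle of 8 weeks, and 3 of the 4 Akt1+/- muscles of 35 weeks were above all Akt1+/- muscles of 8 weeks. The difference was 0.72 (SE 0.13, adjusted p = 0.00205), and did not pass in 1 fit over all 42 arrays (adjusted p = 0.0827). In fat Gpnmb differed by 0.58 (95% interval 0.03 to 1.13, adjusted p = 0.128), and passed without Akt1+/- replicate 2 of 35 weeks (0.73, adjusted p = 0.0412).

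Mrc1 fell with age in muscle, from -0.72, -1.42 and -1.28 in Wt and -0.78, -0.16 and -0.47 in Akt1+/- mice to -1.86, -1.14, -1.74 and -1.80 and -1.33, -1.24, -1.34 and -1.33. The Akt1+/- ages did not overlap and the Wt ages did, and the difference was -0.67 (SE 0.14, adjusted p = 0.00452). In fat, where Mrc1 was at 1.93, 1.81 and 1.78 in Wt and 2.40, 2.06 and 2.14 in Akt1+/- mice of 8 weeks, the levels at 35 weeks were 2.01, 1.71, 1.84 and 1.94 and 1.79, 1.62, 1.55 and 1.74. The Akt1+/- arrays of 35 weeks were all below those of 8 weeks, the Wt arrays overlapped, and the difference was -0.25 (SE 0.08, adjusted p = 0.0402). This call was lost in 9 of the 14 leave-outs, those of Wt replicates 1 and 2 and Akt1+/- replicate 1 of 8 weeks, and of replicates 2, 3 and 4 of each genotype at 35 weeks (adjusted p from 0.0508 to 0.104). It was also lost with no filter (adjusted p = 0.0724), normexp with quantile normalization (adjusted p = 0.121) and 1 fit over all arrays (adjusted p = 0.101). In liver the Mrc1 difference was 0.13 (95% interval -0.06 to 0.32, adjusted p = 0.26).

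Itgam in liver was at -6.03, -7.10 and -7.03 in Wt and -7.00, -5.09 and -4.24 in Akt1+/- mice of 8 weeks, and at -4.50, -4.92, -4.40 and -3.25 and -3.73, -5.05, -4.54 and -5.18 at 35 weeks. All Wt livers of 35 weeks were above those of 8 weeks, and the Akt1+/- ages overlapped. Since no Wt liver of 8 weeks was well above background, the rise in Wt is given as a bound, at least 1.51-fold, and the fitted difference over both genotypes was 1.63 (SE 0.42, adjusted p = 0.0102). The probe passed the filter in liver only through the groups of 35 weeks, and that call is no independent sign of a rise. With normexp background correction and quantile normalization it was 0.16, adjusted p = 0.122, and no longer called. In muscle Itgam was well above background on no array of 35 weeks, and the Akt1+/- mean of 8 weeks was at least 1.58-fold above that of 35 weeks. The filter passed Itgam in muscle only through that 8-week group, so that no test of its age difference is given. In fat the difference was -0.30 (95% interval -0.69 to 0.09, adjusted p = 0.252) on the probe that stands for the gene, and -0.76 (SE 0.12, adjusted p over probes = 0.00141) on the other. The probes thus disagreed in size, and the first passed without Wt replicate 3 of 8 weeks (-0.47, adjusted p = 0.037).

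Cd68 rose in liver from 0.01, -0.16 and -0.44 in Wt and 0.02, 0.31 and -0.23 in Akt1+/- mice to 0.51, 0.41, 0.29 and 0.46 and 0.53, 0.22, 0.19 and -0.19. The Wt ages were apart and the Akt1+/- ages overlapped, with a difference over both of 0.39 (SE 0.12, adjusted p = 0.0272). Under scaling to the array median, which shifts the age difference of all liver genes by -0.20, it was 0.19, adjusted p = 0.202. It was also lost with the slide as a random block (adjusted p = 0.0516), in 1 fit over all arrays (adjusted p = 0.0772), and without Wt replicate 3 (adjusted p = 0.068) or Akt1+/- replicates 1 (adjusted p = 0.0533) or 3 (adjusted p = 0.067) of 8 weeks. In muscle and fat Cd68 differed with age by -0.03 (95% interval -0.50 to 0.45, adjusted p = 0.938) and 0.08 (95% interval -0.21 to 0.38, adjusted p = 0.698). Csf1r differed by 0.36 (95% interval -0.00 to 0.72, adjusted p = 0.116) in liver and by -0.30 (95% interval -0.68 to 0.09, adjusted p = 0.221) in muscle. In fat it differed by -0.22 (95% interval -0.48 to 0.05, adjusted p = 0.231) and passed without Akt1+/- replicate 3 of 8 weeks (-0.32, adjusted p = 0.0388).

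Cd163, the gene with the clearest genotype difference, showed no called difference with age. Its values were 0.25 (95% interval -0.01 to 0.52, adjusted p = 0.13) in liver, -0.12 (95% interval -0.47 to 0.22, adjusted p = 0.584) in muscle and -0.04 (95% interval -0.29 to 0.21, adjusted p = 0.854) in fat. Itgax showed none either, at -0.17 (95% interval -0.59 to 0.25, adjusted p = 0.522) in liver, -0.01 (95% interval -0.49 to 0.47, adjusted p = 0.983) in muscle, where 13 arrays entered the fit, and -0.23 (95% interval -0.96 to 0.49, adjusted p = 0.665) in fat. On the dimmer Itgax probe the muscle value was 0.88. That probe passed the filter in muscle only through the groups of 35 weeks. Its rise was thus set by the filter, and no test of it is given.

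**Figure D4:**
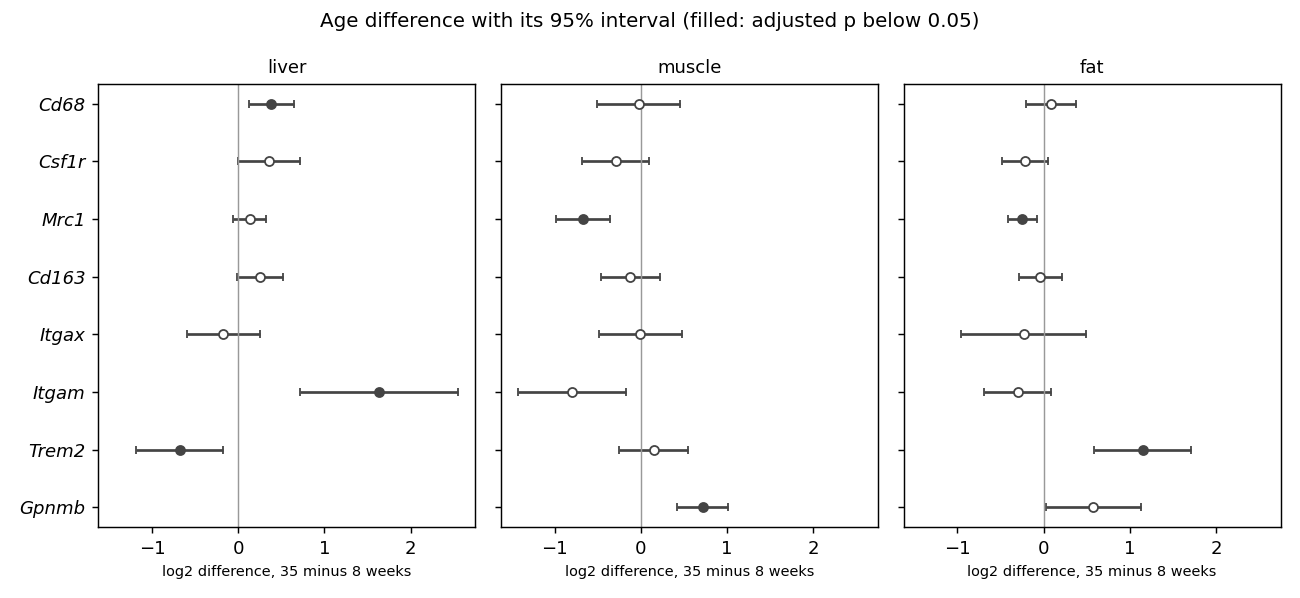
The plot of age differences shows the log2 difference 35 minus 8 weeks of each member over both genotypes in each tissue with its 95% interval, filled where the adjusted p was below 0.05. Trem2 is filled to the left of 0 in liver (-0.68) and to the right in fat (1.15), Gpnmb is filled to the right in muscle (0.72) and Mrc1 to the left in muscle (-0.67) and fat (-0.25). Cd68 and Itgam are also filled to the right in liver. The sides of the Itgam points of liver and muscle were set by the filter.

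The age differences of the tissues were also tested against each other. Between fat and liver 3 of 8 members were called, against 16.2% of all genes, with Trem2 at 1.83 (SE 0.34, adjusted p = 0.000289), Itgam at -1.94 (SE 0.47, adjusted p = 0.00426) and Gpnmb at 1.69 (SE 0.44, adjusted p = 0.00725). Between fat and muscle 1 was called, against 16.4%, again Trem2 at 1.0 (SE 0.34, adjusted p = 0.0417). That call was lost in 14 of the 42 leave-outs (adjusted p up to 0.092), with no filter (adjusted p = 0.0569) and with slides as a random block (adjusted p = 0.0864). Between liver and muscle 4 were called, against 18.9%, with Itgam at 2.44 (SE 0.47, adjusted p = 0.000489), Mrc1 at 0.80 (SE 0.15, adjusted p = 0.000446), Gpnmb at -1.83 (SE 0.44, adjusted p = 0.00377) and Csf1r at 0.65 (SE 0.23, adjusted p = 0.0468). The Csf1r call was lost in 25 of the 42 leave-outs (adjusted p up to 0.119), and with median scaling (0.50, adjusted p = 0.0982), no filter (adjusted p = 0.055), normexp and quantile normalization (adjusted p = 0.0537) or slides as a random block (adjusted p = 0.0863). Gpnmb was too dim for the filter in liver and entered through fat and muscle, so that its values involving liver set a measured change against signals at background and give no age change of liver. The same holds for Itgam, which was well above background on no Wt liver of 8 weeks and no muscle of 35 weeks. Csf1r between fat and liver, at -0.57 (SE 0.23, adjusted p = 0.0911), was called with the replicate number as a block (-0.57, adjusted p = 0.0425). Calls gained when an array was left out were those of Mrc1 between fat and muscle in 5 leave-outs (adjusted p down to 0.0121). Also gained were Cd163 between liver and muscle without the Wt muscle replicate 2 of 8 weeks (0.51, adjusted p = 0.049), Trem2 between liver and muscle without the Akt1+/- liver replicate 3 of 35 weeks (-1.0, adjusted p = 0.0236) and Csf1r between fat and liver without the Akt1+/- fat replicate 3 of 8 weeks (-0.68, adjusted p = 0.0428).

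The wider lists held genes called with age in both directions. Their counts read against the shares of all genes given above, which were 20% higher and 15% lower in liver, 16.9% and 14.4% in muscle, and for fat 9.94% and 9.3%. Many of them lay near or below these shares. Of the general macrophage genes 9 of 26 rose and 2 fell in liver. There Cybb, the NADPH oxidase subunit, rose by 0.90 (SE 0.12, adjusted p = 0.000198) and Lyz2, the macrophage lysozyme, by 0.65 (SE 0.13, adjusted p = 0.00227), while the scavenger receptor Msr1 differed by -0.31 (SE 0.10, adjusted p = 0.0373) and Siglec1, the sialoadhesin of resident macrophages, by -0.40 (SE 0.15, adjusted p = 0.0499). In muscle 1 of 25 rose and 0 fell (Mpeg1, 0.40 (SE 0.14, adjusted p = 0.0448)). In fat 1 of 26 rose and 3 fell, among them Adgre1, which encodes F4/80 (-0.45 (SE 0.08, adjusted p = 0.00371)), Siglec1 (-0.56 (SE 0.12, adjusted p = 0.00722)) and, rising, Mpeg1 (0.37 (SE 0.08, adjusted p = 0.00665)).

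Of the resident and Kupffer genes 4 of 14 rose and 2 fell in liver. There the lectins Cd209f (-2.21 (SE 0.25, adjusted p = 6.29e-05)) and Clec4f (-0.32 (SE 0.11, adjusted p = 0.0351)) fell and the transcription factor Maf (1.49 (SE 0.25, adjusted p = 0.000802)) and the ficolin Fcna (0.44 (SE 0.11, adjusted p = 0.00843)) rose. In muscle 2 of 12 rose and 1 fell, with the scavenger receptor Marco falling (-0.35 (SE 0.11, adjusted p = 0.0326)). In fat 1 of 15 rose and 2 fell, with the folate receptor Folr2 falling (-0.85 (SE 0.14, adjusted p = 0.00204)) and the complement receptor Vsig4 rising (0.77 (SE 0.22, adjusted p = 0.0294)). Of the lipid-associated genes 5 of 19 rose and 2 fell in liver, 2 of 18 rose and 2 fell in muscle and 1 of 22 rose and 0 fell in fat, where the lysosomal lipase Lipa differed by 0.30 (SE 0.09, adjusted p = 0.0323). Spp1, which encodes osteopontin, fell in liver (-0.45 (SE 0.10, adjusted p = 0.00489)).

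Of the CSF1R ligands and lineage factors 2 of 12 rose and 0 fell in liver, 2 of 10 rose and 1 fell in muscle and 1 of 12 rose and 1 fell in fat. Mitf, a transcription factor known to drive Gpnmb, was among the genes that rose in each tissue, by 0.41 (SE 0.13, adjusted p = 0.0278), 0.71 (SE 0.08, adjusted p = 9.89e-05) and 0.92 (SE 0.17, adjusted p = 0.00378). Of the recruitment genes 2 of 17 rose and 3 fell in liver, 1 of 17 rose and 1 fell in muscle and 0 of 18 rose and 1 fell in fat. Ccr2, the receptor of inflammatory monocytes, fell in liver (-1.05 (SE 0.16, adjusted p = 0.000508)) and fat (-0.82 (SE 0.18, adjusted p = 0.00844)). Of the activation genes 2 of 15 rose and 3 fell in liver, 0 of 13 rose and 2 fell in muscle and 0 of 18 rose and 1 fell in fat. The costimulatory gene Cd86 was higher in liver (0.37 (SE 0.13, adjusted p = 0.038)) and lower in muscle (-0.66 (SE 0.17, adjusted p = 0.0116)) and fat (-0.62 (SE 0.14, adjusted p = 0.0106)).

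Within the groups of fat the members did not vary together as a set, and liver and muscle were not examined in this way. Over the 14 fat arrays, after the mean of each of the 4 groups was subtracted, Pearson's r between members ran from -0.51 (Cd68 with Cd163) to 0.60 (Itgax with Trem2), with 0.53 for Cd68 with Trem2, 0.50 for Mrc1 with Itgam and 0.05 for Trem2 with Gpnmb. The arrays share a tissue and a scaling, and these values are a description with no test. The genes most like a member by this measure, among all genes tested in fat, are given for 7 of the members. They were Marchf1, Taok3 and Camk1d (r = 0.95 to 0.89) for Cd163. They were Mprip, Plk1 and Top2a (r = 0.94) for Trem2 and Eif4h, TC1638264 and Cd300a (r = 0.93 to 0.92) for Cd68. For the others they were 9930012K11Rik, Rab33a and Mfsd10 (r = 0.89 to 0.88) for Mrc1, Get3, Mob3a and Tbc1d10b (r = 0.95 to 0.93) for Itgax, Ccdc120, Helq and A330105O20Rik (r = 0.94 to 0.90) for Itgam and Retreg2, Casp2 and Tead2 (r = 0.89 to 0.88) for Gpnmb. For these 7, no member was among the 3 genes closest to another.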

How the data were processed

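RNA of 42 tissue samples was hybridised to 1-colour Agilent whole mouse genome arrays. The authors extracted spot intensity values with Agilent Feature Extraction, version 9.1 per the submitters' processing notes and 9.5.3.1 per the file headers, and the deposited processed signal is already background-subtracted and on a linear intensity scale. The authors also deposited a table of log2 values, which matched (r = 1) the log2 processed signal of each array relative to its 75th percentile, with column medians from -3.69 to -3.27, and was used as an alternative. The study's text describes the arrays of liver, muscle and fat with 3 samples per group, while the labels hold 4 per genotype at 35 weeks.

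From the processed signal, log2 values minus the 75th percentile of each array over non-control probes were computed. A probe entered a tissue's fit if 3 or more arrays of any of the 4 groups had it well above background. Spots marked as outliers were taken as missing, and a probe needed at least 2 measured arrays in every group. The brightest passing probe stood for a gene. limma 3.58.1 (R 4.3.3) was fitted per tissue for genotype, age, their interaction and genotype at each age, and over all 42 arrays for differences between tissues, with Benjamini-Hochberg adjustment over all genes and a call below 0.05. Tables were made with Python 3.11.15 (pandas 2.3.3, numpy 2.4.6, scipy 1.17.1). The scripts were tested on simulated data. Precision is limited by the number of arrays, and no interval covers more than the spread between them.

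Named were all 8 members, for each wider gene list up to 2 genes of lowest p in each direction among those past the threshold, the defining genes of marker lists, and for each member the 3 genes closest to it over the fat arrays. Some genes of these lists were left unnamed for space. The genes closest to Csf1r are not reported here. The members and the lists were chosen with earlier results of these data known. Groups and replicate numbers came from the labels. Same-numbered Wt and Akt1+/- samples deviated together at 35 weeks, with r from 0.105 to 0.526 across genes in all 12 pairs. They did not at 8 weeks, with r from -0.194 to 0.0733 in 9 pairs. At 35 weeks each number was also the position of the array on its slide, while at 8 weeks same-numbered samples did not share a position. Paired samples thus cannot be told apart from an effect of position, and the labels do not say what a number marks.

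Values were recomputed on the authors' log2 values, after normexp correction of the background (offset 50) followed by quantile normalization, and with the median in place of the 75th percentile. The filter was dropped or made to ask for signal above background throughout a tissue, and a gene's probes were averaged. Other fits used the two-way test of the methods, a block for the replicate number, a random block for slides (duplicateCorrelation) and all 42 arrays at once, and each array was left out in turn. Leaving out probes with an outlier spot was added after seeing the data.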

Additional observations from a re-analysis of the deposited data

Results flagged for a closer look

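Among 45 groups of 4 arrays of the members, 3 held an array that stood far from the other 3 by Dixon's test, where chance marks about 1 group in 20. Trem2 in liver was at -1.0 in Akt1+/- replicate 3 of 35 weeks, and the others of its group were at -2.47 to -2.31. Mrc1 in muscle was at -1.14 in Wt replicate 2 of 35 weeks against -1.86 to -1.74 in the others, and at -1.24 in Akt1+/- replicate 2 of that age against -1.34 to -1.33. The last group spans a narrow range, so that a small gap was enough.

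The test of a difference between tissues picked out the genotype difference of Trem2, which in fat minus liver was 1.51 (SE 0.34, adjusted p = 0.00913 with limma).

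For age, 8 differences between tissues passed the same test. In fat minus liver they were those of Trem2 (1.83, SE 0.34, adjusted p = 0.000289 with limma), Gpnmb (1.69, SE 0.44, adjusted p = 0.00725) and Itgam (-1.94, SE 0.47, adjusted p = 0.00426). In fat minus muscle it was that of Trem2 (1.0, SE 0.34, adjusted p = 0.0417). In liver minus muscle the called values were 0.80 for Mrc1 (SE 0.15, adjusted p = 0.000446), 2.44 for Itgam (SE 0.47, adjusted p = 0.000489), 0.65 for Csf1r (SE 0.23, adjusted p = 0.0468) and -1.83 for Gpnmb (SE 0.44, adjusted p = 0.00377). Gpnmb did not pass the filter on dim signals in liver, and Itgam passed it in muscle only through the Akt1+/- group of 8 weeks, so that the values of these genes rest partly on signals at background. Age and scanning day cannot be told apart in these comparisons.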

How the results depend on the processing

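Of 187 values of single members and 24 counts of called members, most kept their side of the threshold, in 6321 of 6460 recomputed member values, and 772 recomputed counts stayed within 1.5 times. Of those 6321 values 144 took the opposite sign while called in neither setting. The authors' log2 values matched those of the report, and averaging probes leaves a gene with a single probe unchanged, so that these settings could hardly move such values. In the other member values 93 calls were lost, 43 were gained and 3 reversed. The 3 reversals were all Itgax with outlier-spot probes left out, at 0.88 for age in muscle, -0.66 for fat against liver and -0.66 for fat against muscle, where another probe stands for the gene. That probe passed the filter only through groups of 35 weeks in liver and muscle, so that these directions were set by the filter. Arrays per group (3 or 4), slides that hold a single genotype at 35 weeks and dim probes of Itgam, Itgax and Gpnmb limit the comparisons. For the changes listed next the cause was not tested.

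Counts of called members changed by more than 1.5 times as follows. Changes within that limit, such as 6 for fat against muscle (8 in the report) and 5 for liver against muscle (7) under normexp with quantile normalization, or 2 for age in liver (3) under several settings, are not all listed. With median scaling, which shifts all liver genes by -0.13 for genotype and -0.20 for age, 2 members were called for genotype in liver (1 in the report) and 2 for the age difference of fat minus muscle (1). With the replicate number as a block, 2 were called for genotype in liver (Cd163 and Trem2) and 0 at 8 weeks (1), where Cd163 had an adjusted p of 0.0561. In the age comparison of liver the block, which there joins mice of different ages that share only a number, gained Csf1r (adjusted p = 0.034) and lost Trem2 (adjusted p = 0.0745), and in the age difference of fat minus liver it gained Csf1r (adjusted p = 0.0425). The block changed no other call of a member. With no filter 0 members were called for genotype at 8 weeks in liver (1), 1 for age in fat (2) and 0 for the age difference of fat minus muscle (1). Normexp with quantile normalization gave 1 for age in fat (2) and 1 for genotype at 8 weeks in fat (0). With the slide as a random block the counts were 1 for age in liver (3), 1 for genotype in muscle (0), 1 for genotype at 8 weeks in fat (0) and 0 for the age difference of fat minus muscle (1). In 1 fit over all 42 arrays they were 2 for genotype in liver (1), 2 for genotype in muscle over both ages (0) and 2 at 8 weeks (0), 1 for age in muscle (2), 1 for age in fat (2) and 2 for genotype at 8 weeks in fat (0).

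With each array left out in turn, the count ranged in liver from 1 to 2 for genotype, 1 to 3 for age, 0 to 1 for genotype at 8 weeks and 0 to 1 at 35 weeks. In muscle it ranged from 0 to 1 for genotype, 2 to 3 for age and 0 to 1 for genotype at 8 weeks, and in fat from 1 to 3 for age and 0 to 1 for genotype at 8 weeks. The member gained for age in muscle was Itgam, whose direction there was set by the filter. Age differences between tissues ranged from 3 to 4 for fat minus liver, 0 to 2 for fat minus muscle and 3 to 5 for liver minus muscle, and the genotype difference of liver minus muscle from 0 to 1. The other counts, among them 6, 8 and 7 members between tissues, did not move.

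The counts over all genes moved more. For genotype in liver 1100 genes were called, between 245 (slide as a random block) and 3137 (median scaling) under the settings other than leaving out an array. At 8 weeks liver had 379 (78 with no filter, 1139 in 1 fit) and fat 338 (7 with no filter, 1539 in 1 fit). At 35 weeks liver had 626 (205 to 1194), fat 316 (146 to 420) and muscle 17 (0 to 92). Genotype over both ages had 152 genes in fat (1 with the replicate block, 599 in 1 fit) and 0 in muscle (up to 306 in 1 fit, and up to 269 at 8 weeks). The interaction had 100 in liver (11 to 383), 302 in fat (58 to 911) and 0 in muscle (up to 9). Between tissues, normexp with quantile normalization reduced 8799 to 5114 genes for fat against liver, 9601 to 5582 for fat against muscle and 9722 to 6166 for liver against muscle. The genotype differences between tissues had 846 (431 to 1675), 142 (20 to 327) and 178 (9 to 362) genes for fat minus liver, fat minus muscle and liver minus muscle. The age differences had 3221 (2286 to 5440) for fat minus liver and 3264 (2110 to 3764) for fat minus muscle.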
